A study of Mus musculus with 2 samples.

Results

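The chromatin accessibility of Myb and of its neighbours was described in mouse erythroid progenitors, on chromosome 10 from the start of the Ahi1 gene to 50 kb beyond the far end of Hbs1l (chr10:20952547-21418898, mm10, 466.4 kb). Every record of every peak list in this span was taken, wherever it lay and however strong it was, and its distance was measured from the Myb start at position 21160984. Myb runs on the minus strand, so positive distances lie upstream of Myb, toward Hbs1l. In the main list, the series list thresholded on the irreproducible discovery rate (IDR, a measure of how far the ranking of a peak holds up when it is called again), 33 records of the span merged into 18 regions, of 24394 regions in all. The cells were CFU-E, progenitors committed to the red cell lineage that depend on erythropoietin, and were primary cells of adult male C57BL/6J mice aged 5 to 6 weeks, with no treatment or engineered allele named in the labels. ATAC-seq, in which the Tn5 transposase inserts adapters into open DNA, was run on 2 libraries of 50000 cells each. The labels number them as biological replicates and give both the same donor identifier, so there is 1 group and no comparison between conditions. Values of the 2 libraries are therefore given side by side, with no SD and no test. Fold is the authors' enrichment of a peak over local background, and is compared only within 1 list.

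Myb encodes the transcription factor that keeps blood progenitors proliferating and that is turned down as red cells mature. The long intergenic stretch between Hbs1l and Myb holds distal elements that, in mouse erythroid cells, are bound by LDB1, GATA1, TAL1 and KLF1 and contact the Myb promoter. The matching human stretch, HBS1L-MYB, carries common variants associated with fetal haemoglobin and red cell traits. Hbs1l encodes a partner of Pelo in the rescue of stalled ribosomes. Ahi1 encodes a protein of the cilium base and was first found as a site of retroviral insertion beside Myb in mouse leukaemia. Accessibility does not measure enhancer activity, so the peaks are called regions here.

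The sequences below are those the results turn on, the Myb promoter and the 5 distal regions between Myb and Hbs1l (distal means with a midpoint over 1 kb from any annotated transcript start). Each is the plus strand of mm10 (GRCm38.p6) over 100 bp to each side of the region's strongest summit. The region at +28.0 kb, which covers the start of the lncRNA Gm40608, and the region of the first part of Ahi1 with a pair of CTCF consensus matches were added after their values were seen. Capitals mark consensus matches on either strand: GATA (the letters GATA with A or T before them and A or G after them, reverse-complemented where the match is on the minus strand), KLF (CCACACCC, CCACGCCC, CCCCACCC or CCCCGCCC) and CTCF. The CTCF word is, in order, CCA, C or G, C or T, AG, A or G, G or T, and GGC.
Myb promoter, chr10:21160958-21161158: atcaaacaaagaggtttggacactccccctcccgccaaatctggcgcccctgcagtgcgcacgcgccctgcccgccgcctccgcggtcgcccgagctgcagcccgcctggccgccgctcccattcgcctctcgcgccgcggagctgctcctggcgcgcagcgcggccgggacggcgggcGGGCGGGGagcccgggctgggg
+28.0 kb, Gm40608 start, chr10:21189069-21189269: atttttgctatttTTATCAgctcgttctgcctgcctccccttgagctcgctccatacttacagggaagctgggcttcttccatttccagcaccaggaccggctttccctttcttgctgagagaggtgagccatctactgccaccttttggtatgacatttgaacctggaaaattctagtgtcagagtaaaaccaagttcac
+35.9 kb, chr10:21196676-21196876: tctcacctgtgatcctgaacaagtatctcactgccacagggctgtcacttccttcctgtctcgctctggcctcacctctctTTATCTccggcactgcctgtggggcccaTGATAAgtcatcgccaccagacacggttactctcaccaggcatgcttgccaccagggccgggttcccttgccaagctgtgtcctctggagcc
+67.8 kb, chr10:21228598-21228798: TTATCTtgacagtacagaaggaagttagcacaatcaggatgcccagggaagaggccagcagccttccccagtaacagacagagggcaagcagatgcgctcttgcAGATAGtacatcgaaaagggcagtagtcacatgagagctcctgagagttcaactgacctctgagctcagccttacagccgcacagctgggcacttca
+81.0 kb, chr10:21241893-21242093: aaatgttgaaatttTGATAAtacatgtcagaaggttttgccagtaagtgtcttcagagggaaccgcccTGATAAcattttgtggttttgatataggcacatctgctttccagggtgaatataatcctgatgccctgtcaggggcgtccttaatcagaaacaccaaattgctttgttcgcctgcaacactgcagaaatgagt
+99.0 kb, chr10:21259716-21259916: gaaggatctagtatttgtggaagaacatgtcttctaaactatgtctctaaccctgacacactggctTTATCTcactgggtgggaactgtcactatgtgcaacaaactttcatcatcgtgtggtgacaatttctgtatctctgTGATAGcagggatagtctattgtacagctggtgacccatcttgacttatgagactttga
+107.8 kb, chr10:21268834-21269034: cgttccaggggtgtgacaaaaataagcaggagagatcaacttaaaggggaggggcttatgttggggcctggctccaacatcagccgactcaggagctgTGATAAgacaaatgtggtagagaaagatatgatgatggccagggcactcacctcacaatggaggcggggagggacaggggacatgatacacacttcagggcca
Ahi1 intron, 194.6 kb downstream, chr10:20966178-20966378: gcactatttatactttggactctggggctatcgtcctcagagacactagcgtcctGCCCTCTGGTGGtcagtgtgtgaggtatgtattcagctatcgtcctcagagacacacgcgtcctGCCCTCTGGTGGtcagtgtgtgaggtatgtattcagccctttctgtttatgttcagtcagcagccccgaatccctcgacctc

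Accessible regions lay at the promoters of Myb, Hbs1l and Ahi1, in the first parts of the Myb and Ahi1 bodies, and along the stretch between Myb and Hbs1l. That stretch makes up 29.0% of the span's length (135.0 kb) and held 9 of the 18 regions by midpoint, which were the Myb promoter, 3 regions near lncRNA starts and 5 distal regions. The Ahi1 body (127.9 kb) held 5, of which 4 were distal and 1 was the promoter region, whose midpoint lies just outside the gene. The Myb body (36.0 kb) held 2, the Hbs1l body (72.9 kb) 1, and the 50 kb beyond Hbs1l 1. No region lay in the 44.5 kb between Ahi1 and Myb. The longest stretch with no region ran for 164.91 kb over most of the Ahi1 body, the gap between Ahi1 and Myb and most of the Myb body, and the next longest ran for 96.74 kb over the Hbs1l body. Of the 18 regions, 7 were of the promoter class and 11 were distal. Their median fold was 8.20, against 7.57 over all regions of the series, and their median −log10 p was 39.0, against 56.2. They covered 2.13% of the span, against 0.596% of the assembled chromosomes. Widths ran from 167 to 1146 bp.

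**Figure D1:**
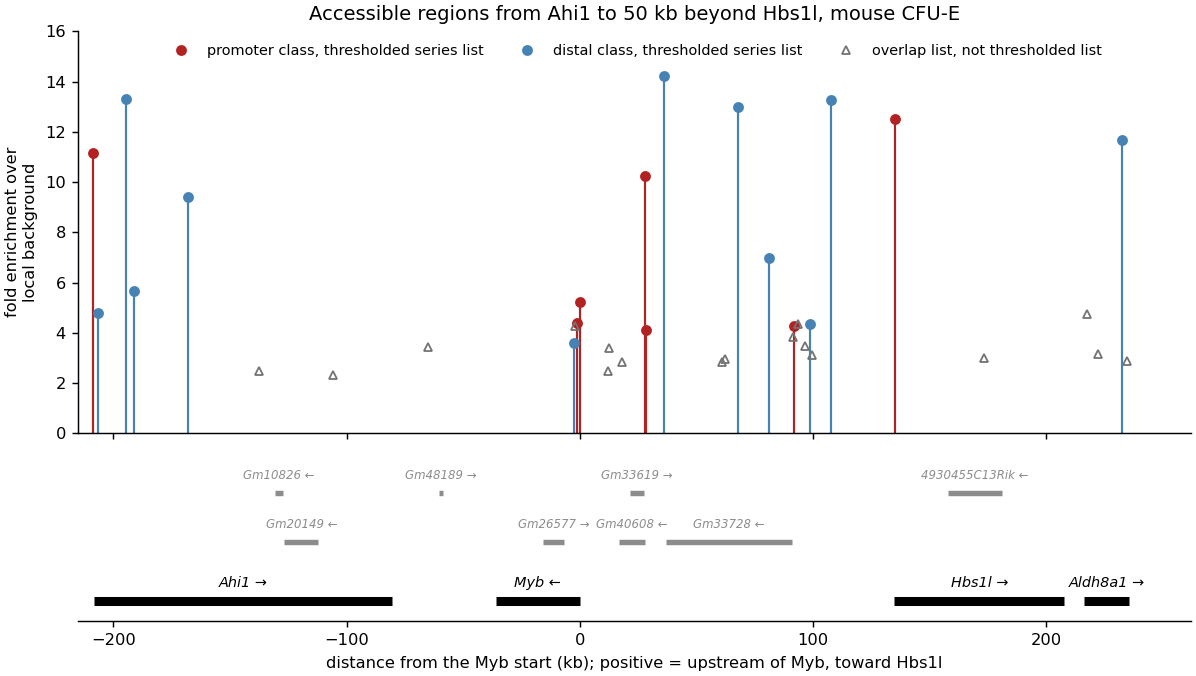
Fold enrichment (vertical axis, main list) of each region by distance of its midpoint from the Myb start in kb (horizontal axis), with promoter-class and distal regions in 2 colours, sites found in the overlap list but not in the thresholded one as open triangles, and genes drawn to scale beneath. The tallest stems between Myb and Hbs1l stand at 35.9, 67.8 and 107.8 kb, all above the Myb promoter (fold 5.21).

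The Myb promoter was open but modest by fold. Its region (chr10:21160909-21161346, 438 bp) had a fold of 5.21 and a −log10 p of 37.6 in the series list, and a fold of 5.12 in replicate 1 and 4.84 in replicate 2. Of all promoter-class regions of the series, 82.8% had at least this fold. Of all regions of both classes, 77.4% had at least this fold and 63.4% at least this −log10 p. Its summit lay 0.07 kb upstream of the Myb start, and the summits of the 2 libraries were 8 bp apart. The 201 bp around the summit were 77.1% G and C with 29 CpG, against medians of 63.7% and 16 at promoter-class summits. They held no GATA match and 1 KLF match. The 300 bases of the RefSeq Myb promoter (GRCm38.p6, chr10:21160935-21161234) held the same KLF word and 40 CpG. A GATA match was in 29.8% and a KLF match in 29.7% of the 32851 RefSeq promoter sequences.

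Just inside Myb, in its introns, 2 weaker regions followed. Myb is known for a block to transcription elongation in its first intron. The region centred 1.1 kb into the gene (chr10:21159700-21160104) had a fold of 4.41 in the series list, with 3.79 in replicate 1 and 4.79 in replicate 2. It was of the promoter class, with its midpoint 948 bp from a Myb transcript start. The one centred 2.6 kb into the gene (chr10:21158136-21158619) had a fold of 3.61 in the series list, with 3.29 in replicate 1 and 3.70 in replicate 2, and 94.1% of distal regions had at least this fold. Neither passed the threshold in either library's own list. Between them lay a further site that missed the series threshold (chr10:21158740-21159465, fold 4.28). It had a fold of 4.52 and a score of 729 in replicate 1, and a fold of 3.47 and a score of 327 in replicate 2. Its score was 515 in the series list ranked on pseudoreplicates, the highest in the span below the lowest score of the main list, 540, and 397 in the one ranked on the true replicates. The region of the span nearest above that limit was the one at +99.0 kb, with a score of 558. The rest of the Myb body, including the antisense lncRNA Gm26577, held no region of the main list. A site 12 bp from the Gm26577 start (chr10:21144942-21145271) was in the overlap list from true replicates (fold 2.85) and in the older list (fold 3.38).

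By fold, the 3 strongest regions between Myb and Hbs1l were the distal ones at +35.9, +67.8 and +107.8 kb. The region at +35.9 kb (chr10:21196528-21197328, intergenic, 801 bp) led by fold, with 14.2 in the series list, and with 12.4 in replicate 1 and 14.4 in replicate 2. Only 2.18% of the series' distal regions had at least this fold. The region at +107.8 kb (chr10:21268251-21269396, intergenic) had a fold of 13.2 in the series list, with 13.1 in replicate 1 and 12.2 in replicate 2. It was the widest of the span, with 1146 bp and 4 merged records, a width reached by 3.95% of distal regions. Its −log10 p of 197, against 169 at +35.9 kb, made it the leader on that scale. In replicate 1 it led by fold and by −log10 p (112, against 82.4 at +35.9 kb), while in replicate 2 the region at +35.9 kb led by both (87.7, against 87.6 at +107.8 kb). The order of these 2 regions thus differed between the libraries and between the measures.

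The region at +67.8 kb (chr10:21228480-21229012, in an intron of the lncRNA Gm33728) was a single record with a fold of 13 in the series list, with 11.5 in replicate 1 and 12.1 in replicate 2. Its −log10 p was 89.0, below the 93.4 of the region at +28.0 kb, so that by −log10 p that region ranked above it. The region at +81.0 kb (chr10:21241664-21242250, in an intron of the same lncRNA) was weaker, at a fold of 6.98 in the series list, with 5.42 in replicate 1 and 6.90 in replicate 2. Both passed the threshold in both libraries. The fifth distal region, at +99.0 kb (chr10:21259713-21260226, intergenic), had a fold of 4.36 in the series list, with 3.60 in replicate 1 and 4.55 in replicate 2, and passed in neither. It was also missing from the conservative list, the one thresholded on the true replicates. Of the 5 distal regions, 3 thus stood at a fold of 13 or more, and the other two at 6.98 or less.

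The other regions of this stretch lay near starts of lncRNA genes, whose functions are not described here. The region at +28.0 kb (chr10:21188646-21189313) covers the Gm40608 start and had a fold of 10.2 in the series list, with 9.35 in replicate 1 and 9.76 in replicate 2. It merged 3 records and was of the promoter class by virtue of this lncRNA. Its G and C content of 47.3% was low for that class, in which 95.2% of summits had at least as much. A narrow region 44 bp farther out, at +28.5 kb (chr10:21189358-21189524, 167 bp), had a fold of 4.12 and was in neither library's ranked list. The region at +92.0 kb (chr10:21252879-21253124), 887 bp from the Gm33728 start, had a fold of 4.28 in the series list and 4.33 in replicate 1, and was not in the ranked list of replicate 2. It was also missing from the conservative list. The Gm33728 start itself was within 275 bp of a site that was in the overlap list but not in the main list (fold 3.83 in the series list, with 3.37 in replicate 1 and 4.12 in replicate 2).

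Set against the Myb promoter in the same list, the strong upstream regions had more than its fold in each library. The ratio at +35.9 kb was 2.73 in the series list, with 2.43 in replicate 1 and 2.98 in replicate 2. The region at +107.8 kb had a ratio of 2.54 in the series list, of 2.56 for replicate 1 and of 2.51 for replicate 2. The ratio was 2.49 at +67.8 kb, 1.96 at +28.0 kb and 1.34 at +81.0 kb in the series list, and 2.25, 1.83 and 1.06 in replicate 1. In replicate 2 it was 2.50, 2.02 and 1.42 at the same places. By −log10 p, the region at +81.0 kb stood below the promoter in the series list (33.7 against 37.6). The same held in replicate 1 (14.6 against 22.5), while in replicate 2 it stood above the promoter (18.5 against 16.9). Upstream of the promoter, the regions with less fold than it had in the series list were those at +28.5, +92.0 and +99.0 kb, and both regions in the Myb introns also had less.

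A GATA match, the word bound by GATA factors, lay within 100 bp of the summit at all 5 distal regions between Myb and Hbs1l, and at 7 of the 11 distal regions of the span. Over all distal summits of the series the share was 49.8% (5996 of 12040). In the conservative list the region at +99.0 kb was missing, and the site at +93.7 kb, with no GATA match, was present. At +35.9 kb a minus-strand TTATCT starts 19 bases before the summit and a TGATAA 9 bases after it. At +67.8 kb an AGATAG starts 4 bases after the summit, with a second match at the window's edge. At +107.8 kb the TGATAA holds the summit itself. The nearest match was thus within 10 bp of the summit at the 3 strongest distal regions, and at 27 and 29 bp at the weaker ones at +81.0 and +99.0 kb. A summit within 10 bp of a GATA match was found at 14.9% of all distal summits. This distance was chosen after the values were seen, and 3 regions are too few to read a relation with fold.

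The composite word of CTG followed by GATA at 7, 8 or 9 bases, known from sites bound jointly by TAL1 and GATA1, overlaps the GATA word and is not independent of it. It was present at +35.9, +67.8 and +99.0 kb, 3 of the 5, and at 5 of the 11 distal regions of the span, against 15.8% of all distal summits. Among summits with a GATA match, it was at 5 of 7 distal regions of the span and at 1900 of 5996 distal summits of the series. These regions are too few to read a difference. The site at +93.7 kb, in the conservative list where that at +99.0 kb was not, did not hold it. No distal region of the span held an exact KLF match within 100 bp of its strongest summit, which 19.0% of all distal summits did. The rest of each region was not searched for it, and 11 regions are too few to tell this apart from that share. A RUNX match (TGNGGTN with C or T at each N) was at +81.0 kb alone among the 11, against 10.9% of all distal summits. The MYB word (NAACNG with C or T at the first N and G or T at the other) was at +67.8 kb and at the region in Aldh8a1, 2 of the 11, against 24.1% of all distal summits. NFE2 (TGCTGACTCA or TGCTGAGTCA), the shorter AP1 word within it (TGACTCA or TGAGTCA) and ETS (CCGGAAGT) had no match at any of the 18 regions. Their shares over the series were 2.57%, 7.27% and 0.598% of distal summits, and 0.526%, 2.95% and 6.85% of promoter-class summits. A consensus match is a description of the letters and not a measurement of binding.

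**Figure D2:**
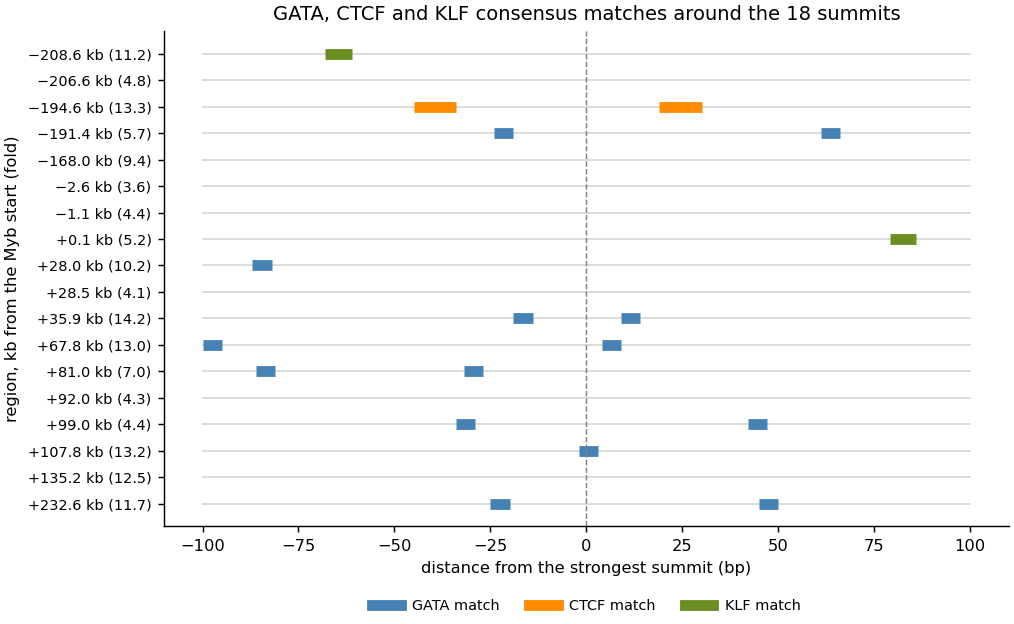
Consensus matches (coloured bars, drawn to scale) within 100 bp of the strongest summit (horizontal axis, bp) of each of the 18 regions, ordered by distance from the Myb start with the series fold in brackets. GATA matches sit on or beside the summit at +35.9, +67.8 and +107.8 kb, and the pair of CTCF matches flanks the summit 194.6 kb downstream.

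Ahi1 had a strong promoter and a group of open sites in the first part of its body, all far downstream of Myb. The promoter region (chr10:20951918-20952919) had a fold of 11.2 in the series list, with 10.9 in replicate 1 and 10.5 in replicate 2. Within the introns, the strongest region lay 194.6 kb downstream of the Myb start (chr10:20966091-20966599), at a fold of 13.3 in the series list, with 12.5 in replicate 1 and 11.8 in replicate 2. It held 2 CTCF matches, on the same strand, whose starts were 64 bp apart within a repeated stretch where 44 bases in a row were identical. CTCF is the insulator protein that anchors chromatin loops. This region was the only one of the 11 distal regions of the span with a CTCF match (9.09%), near the share of 11.6% over all distal summits. No promoter-class region of the span held one. Only exact matches of the word were counted, so near forms of it elsewhere in the span are not covered. A number of 2 or more matches was found at 0.125% of all distal summits (15 of 12040). The part of the repeat in the height of this region was not tested.

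The other intronic regions of Ahi1 were centred 206.6, 191.4 and 168.0 kb downstream of the Myb start. The one at 168.0 kb (chr10:20992703-20993226) had a fold of 9.42 in the series list, with 7.24 in replicate 1 and 9.42 in replicate 2. The one at 191.4 kb (chr10:20969465-20969788) had 5.67 in the series list, with 5.61 in replicate 1 and 4.84 in replicate 2, and held 2 GATA matches with the composite word. The one at 206.6 kb (chr10:20954271-20954523), 1772 bp from the Ahi1 start, had 4.78 in the series list, with 4.67 in replicate 1 and 4.49 in replicate 2. It held 21 CpG in 201 bp, a number reached by 1.08% of distal summits, and passed the threshold in neither library. From the region 168.0 kb downstream to those in the Myb introns the main list was empty, including over the lncRNA genes Gm10826, Gm20149 and Gm48189, and the overlap list added 3 sites with a fold between 2.32 and 3.45.

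Hbs1l was open at its promoter and nowhere else in the main list. Its promoter region (chr10:21295743-21296681) had a fold of 12.5 in the series list, with 12 in replicate 1 and 11.1 in replicate 2, and 22.2% of promoter-class regions had at least this fold. In the same lists the Myb promoter stood at 5.21, 5.12 and 4.84. Beyond Hbs1l, the one region lay in an intron of Aldh8a1, an aldehyde dehydrogenase gene, at +232.6 kb (chr10:21393420-21393807). It had a fold of 11.7 in the series list, with 11.1 in replicate 1 and 9.78 in replicate 2, and held 2 GATA matches and the composite word. No region of the main list was within 1 kb of the Aldh8a1 start. A site 1397 bp from that start (chr10:21378581-21378908) was in the conservative list, which is thresholded on the true replicates, with a fold of 4.77, but not in the main list.

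In all, 12 of the 18 regions were in the thresholded lists of both libraries and 6 in neither, so none was in one alone. The share of 66.7% lay beside 65.3% for all regions of the series (15920 of 24394). The 6 in neither were the 2 in Myb introns, those at +28.5, +92.0 and +99.0 kb, and the one 206.6 kb downstream. All had a fold under 4.79 in the series list. In the ranked lists, which have no IDR threshold, 16 of the 18 were present in both libraries. These lists still leave sites out, so a missing entry does not show a lack of signal. Of these 16, the printed fold was higher in replicate 1 at 8 and in replicate 2 at 8. That count runs across 2 lists, an exception to the limit given at the start, and no difference is read from it. Summits were placed 0 to 27 bp apart, with a median of 5 bp, against 8 bp over all regions.

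**Figure D3:**
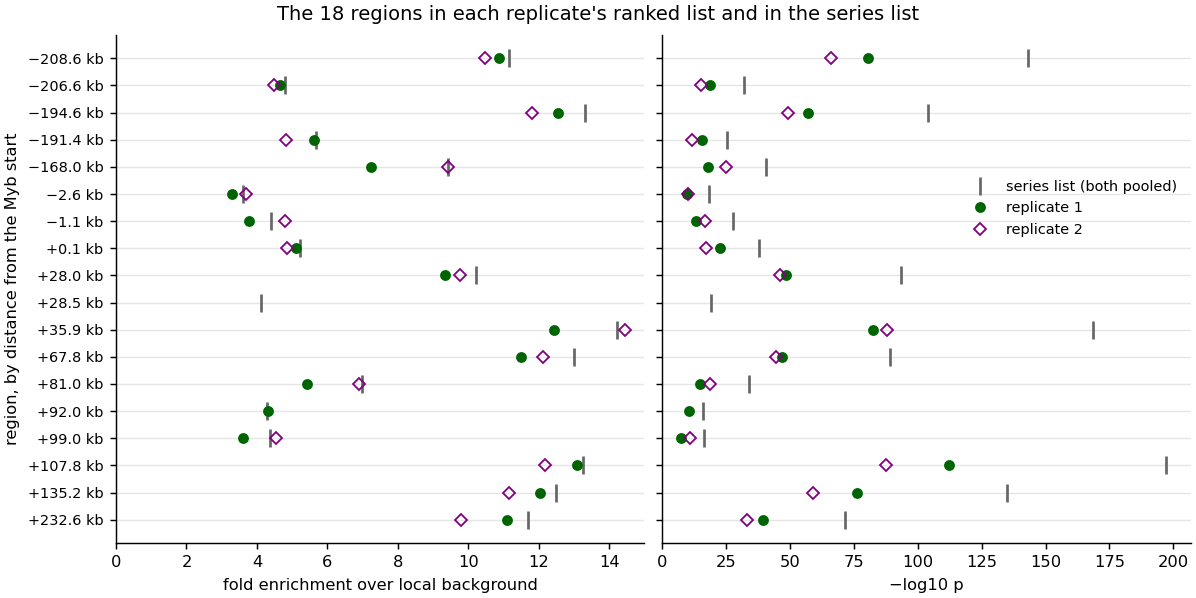
Fold (left) and −log10 p (right) of each of the 18 regions, ordered by distance from the Myb start, in replicate 1 (filled circles), replicate 2 (open diamonds) and the series list called on both (bars). The libraries overlap along the order, and −log10 p is higher in the series list, which holds the reads of both.

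Beyond the main list, the less strict overlap list from pseudoreplicates held 17 further sites in the span, with a fold between 2.32 and 4.77. Between Myb and Hbs1l lay 9 of them. Of these 9, 4 lay between the Gm33728 start and the region at +99.0 kb or just beyond it, at +91.4, +93.7, +96.5 and +99.5 kb, and the other 5 lay at +12.2, +12.7, +17.9, +61.1 and +62.1 kb. The site at +93.7 kb (chr10:21254409-21255031) was in the conservative list with a fold of 4.34, and had a fold of 4.31 in replicate 1 and 3.97 in replicate 2. That at +61.1 kb (chr10:21221791-21222292) had a fold of 2.86 in the series list and 2.46 in replicate 2, and was not in the ranked list of replicate 1. Its summit had 1 GATA and 1 KLF match. Of the 16 distal sites among the 17, 8 had a GATA match, against 35.4% of the 13811 distal regions of the series that are in the overlap list alone.

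The stretch between Myb and Hbs1l held 6.67 regions per 100 kb, against 0.895 over the assembled chromosomes. Among 2671 intervals between neighbouring protein-coding genes of 0.5 to 2 times its length (67.5 to 270.0 kb), 39 held at least as many per 100 kb, itself included, which is 1.46%. Of these intervals, 64.4% held none. Among those ranked just above were Bod1 to Cpeb4 and Mat2a to Sh2d6 (6.99 and 6.75 per 100 kb), and those just below were Gm11084 to Ola1, Ywhah to Slc5a1 and Ugcg to Susd1 (6.60, 6.56 and 6.53). With the promoter class left out, lncRNA starts included, 5 regions remained and 4.08% of intervals held at least as many. In the lists of single libraries the share was 2.28% for replicate 2 and 2.40% for replicate 1.

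**Figure D4:**
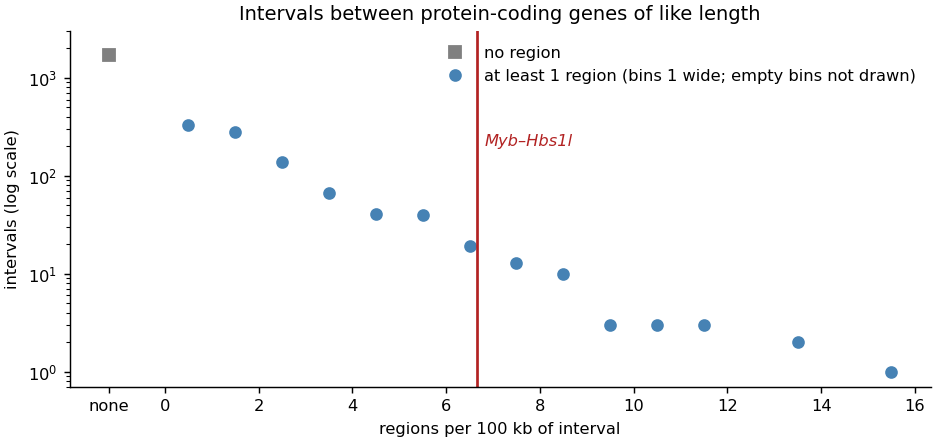
Number of intervals between neighbouring protein-coding genes (vertical axis, log scale) by accessible regions per 100 kb (horizontal axis), over intervals of 0.5 to 2 times the length of the Myb to Hbs1l stretch, with that stretch as a line at 6.67. Most of the 2671 intervals hold no region and 39 stand at or beyond the line.

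Genes that act with Myb and its neighbours were mostly open at their promoters, but so was a large share of all genes. A promoter region lay within 1 kb of a start at 45.8% of protein-coding genes (10049 of 21938). The MYB family had one in 3 of 3 genes, with a fold of 9.02 at Mybl1 and 12.97 at Mybl2, the family member of dividing cells. All 8 genes for proteins known to bind the upstream regions had one, at a fold of 6.43 for Gata1, 4.11 for Tal1, 8.57 for Ldb1, 7.16 for Lmo2 and 6.98 for Klf1. All 5 MYB coactivators and partners had one, among them Ep300 (fold 9.45) and Crebbp (fold 9.06), the acetyltransferases that MYB recruits. So did the 4 regulators of fetal globin silencing, which include Bcl11a (fold 4.29) and Zbtb7a (fold 6.41).

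Of the partners of Hbs1l in ribosome rescue, Pelo had a fold of 7.46 and Abce1, the recycling ATPase, a fold of 12. The cilium transition zone list with Ahi1 had a promoter region in 5 of 6 genes, among them Cep290 (fold 12.4), and Cc2d2a had none. None of the 3 microRNA genes known to target Myb (Mir150, Mir15a and Mir16-1) had a region within 1 kb of its annotated start, which is that of the hairpin and not of the primary transcript.

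As a check of the labelled cell type, 7 of 7 erythroid marker genes had a promoter region, among them Epb42 and Epor. Of 19 genes listed as markers of other blood cells 3 had one, the megakaryocyte genes Itga2b (fold 8.94) and Gp9 (fold 3.30) and the macrophage gene Cd163 (fold 11). The Cd163 and Gp9 regions were in the ranked list of replicate 1 and not in that of replicate 2. All listed markers of T cells, B cells, granulocytes and monocytes, and stem and early progenitor cells lacked one in the main list. Among them, Kit had a region in the overlap list (fold 4.46) and in replicate 1 (fold 5.11), and none in the ranked list of replicate 2. Kit is not particular to cells other than CFU-E, so its lack in the main list is not read as support for the label. Read depth is unknown from peak lists. Whether the libraries are independent could not be told from the labels, so they count as 1 sample. The part of other cells in the regions of the span was not tested.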

How the data were processed

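ATAC-seq peak lists of 2 libraries were used as deposited, on mm10. The authors called peaks for each replicate alone and for the pair, per the listing of files. Fold enrichment is a ratio over local background computed by the authors, p-values were deposited as −log10 values, and the score is the authors' value (lowest 540 in thresholded lists). Aligner, peak caller, handling of duplicates, Tn5 offset and read depth: not given in the sources used here. Thresholded and overlap lists also derive from a further file that the listing does not describe, and the older replicated list from other files. The 16 columns of per-set values in the ranked lists, the q-values and the IDR columns were not used. Signal tracks were not used here.

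Overlapping or adjoining records were joined into 1 region, which took the values of its strongest record (Python 3.11.15, pandas 2.3.3). A region belonged to a segment by its midpoint and to the promoter class within 1 kb of any transcript start of GENCODE M21. Promoters of genes were 1 kb to each side of any start. Intervals of at least 20 kb between protein-coding genes were counted on the assembled chromosomes. Consensus words were searched on both strands within 100 bp of the strongest summit in GRCm38.p6. Merging, overlap and the word search were tested on simulated data. The assignment to segments and classes and the interval counts were not. No test between groups was made, since there is 1 group. Named genes were every gene of the span and fixed lists of partners, and sequences shown were the Myb promoter and the strongest distal regions up to 6. Members, lists and words were chosen with earlier results of these data known. Alternatives covered the peak list, merging, counting, windows and each replicate alone.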

Additional observations from a re-analysis of the deposited data

How the results depend on the processing

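Counts followed the list: the span held 35 and 32 regions in the overlap lists from pseudoreplicates and true replicates, 77 in the older list and 9 in the upper 50% by fold, and the stretch between Myb and Hbs1l held 18, 15, 33 and 4 in the same lists, and 5 with promoters left out. Each replicate alone gave 12 to 13 regions in the span and 6 in the stretch. The share of intervals at least as dense was 2.13% in the conservative list, 0.374% in the overlap list from pseudoreplicates, 3.44% in the older list, 2.25% in the upper 50% by fold, 5.03% over all intervals of 20 kb or more, 4.08% without promoters, and 2.28% to 2.40% in single replicates. The strongest region of the stretch, at +35.9 kb, gave way to the one at +107.8 kb by −log10 p, and to the same region, centred at 108.1 kb, in the older list. Without a replicate, its place ran from 35.9 to 108.1 kb. The cause of these shifts was not tested, beyond the number of records each list admits. All 3 gene promoters were open under each alternative except the upper 50% by fold, which lost that of Myb. Distal regions with a GATA match ranged from 39.7% in the older list to 75.0% in replicate 2 alone, against 63.6% in the main list, where 11 regions are too few to tell these shares apart or to tell them from the 49.8% of all distal summits. No paired analysis was possible because the 2 libraries form 1 group. Peak lists show no region below their caller's limit, so an empty stretch is not shown to be closed at this depth, which is unknown.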

Other observations

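The older list of replicated peaks, which derives from other files and is longer, held 77 regions in the span. Of the sites it added, 39 were in no other list, 14 of them between Myb and Hbs1l, 9 in the Ahi1 body and 7 beyond Hbs1l. Their fold ran from 2.37 to 6.49. The strongest lay in an Ahi1 intron, 81.9 kb downstream of the Myb start (chr10:21078991-21079151, fold 6.49, −log10 p 12.9). The next were in a Myb intron 33.8 kb into the gene (chr10:21127084-21127239, fold 4.37) and in an exon of Aldh8a1 (chr10:21385442-21385561, fold 4.15). All 18 regions of the main list were also in the older list. There the region at +107.8 kb had the highest fold of the stretch between Myb and Hbs1l, 16.4, against 14.4 at +35.9 kb, and the Myb promoter had 6.10.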
